A study of Rattus with 6 samples.

Results

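Hyaluronan is a long, unsulfated sugar chain of the matrix around cells. The genes described here make it, break it down or bind it: Has1, Has2 and Has3, Hyal1 and Hyal2, Cemip, Cd44, Vcan, Tnfaip6 and Ptx3. They were picked by symbol from the deposited count table, and 10 of 10 were found among its 30211 genes. RNA was sequenced from wild-type rat bone marrow mesenchymal stem cells (BMSC), the stromal cells of marrow that can form bone, fat and cartilage. There were 3 control libraries and 3 libraries from cells given 100 uM dexamethasone, a synthetic glucocorticoid, with all samples taken after 4 days of culture. The groups follow the titles and descriptions, since the treatment tag reads DEX for every sample. The sources used here do not say whether control cells received vehicle or whether replicates were separate cultures or animals. The p-values therefore reflect the spread among these libraries alone, and that spread may be technical.

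Hyaluronan is spun out through the plasma membrane by 3 synthases, which join sugars from UDP-glucuronic acid and UDP-N-acetylglucosamine. It is cut by hyaluronidases, of which HYAL2 acts at the cell surface and HYAL1 in lysosomes, and by the CEMIP route, which depolymerises it outside lysosomes. CD44 is its main receptor on stromal cells, versican is a large proteoglycan that binds it through a link module, and TSG-6 (from Tnfaip6) and PTX3 join it to other proteins in inflamed matrix and in the cumulus around the egg.

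Library totals ranged from 34835072 to 41676315 counts, and levels are counts scaled by depth and by edgeR's TMM method (CPM). Fkbp5, Tsc22d3, Per1 and Zbtb16, established targets of the glucocorticoid receptor, rose in the libraries labelled dexamethasone, by 4.30, 2.88, 1.63 and 10.87 on the log2 scale, the last from 8 counts in all controls. Of 10 marker genes of stroma, 9 were in the table and were tested, and their summed level was 5185 to 5288 CPM in controls and 6235 to 6512 CPM with dexamethasone. Of these 9, 4 rose, 4 fell and 1 missed the threshold. For this and the marker counts below, the shares over all tested genes were 32.3% that rose and 31.7% that fell. Col3a1, a fibrillar collagen gene, rose from 1996 to 4346 CPM, and without it the sum was 3213 to 3268 CPM in controls and 1993 to 2027 CPM with dexamethasone. Prrx1, a mesenchymal transcription factor gene, Pdgfrb, Col1a1 and Eng had log2 fold changes of -3.27, -2.17, -0.78 and -0.20. Changes in the opposite direction were seen for Pdgfra (598 CPM in controls, 965 CPM with dexamethasone, log2 0.69), Nt5e (log2 0.60) and Lepr (log2 1.79). Lepr had few counts, 31 in controls and 108 with dexamethasone. Thy1 was the marker that missed the threshold (log2 0.01). The stromal markers besides Col3a1 thus did not share 1 direction. The 12 macrophage markers summed to 11.7 to 12.4 CPM in controls and 8.71 to 9.66 CPM with dexamethasone, of which 0 rose and 3 fell (Cd68, Cd74 and Lyz2) among 6 tested. Cd14 held most of that sum in both groups, at 7.27 and 7.65 CPM, and did not pass (log2 0.07). The macrophage genes Adgre1, C1qa, C1qb and Tyrobp had 0 counts in all 6 libraries, while Ptprc had 94 control and 76 dexamethasone counts, Csf1r 44 and 19, and Itgam 27 and 2. The part of such cells in the changes described here was not tested. The 7 granulocyte markers summed to at most 0.681 CPM in any library and the 6 endothelial markers in the table to at most 2.17 CPM. Markers of mesothelium and smooth muscle summed to 472 to 485 CPM in controls and 470.2 to 481 CPM with dexamethasone, and of 6 tested 2 rose (Msln from 225 to 251 CPM, Wt1 from 2.15 to 4.14 CPM) and 2 fell (Des from 201 to 172 CPM, Cnn1 from 0.56 to 0.21 CPM). The marker genes are named after their values were seen.

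Among these genes, those of hyaluronan synthesis and binding, and Cemip, were lower with dexamethasone, while the lysosomal hyaluronidase Hyal1 was higher. Of the 10 genes, all of which passed the filter on low counts, 8 fell, 1 rose (Hyal1) and 1 did not pass (Hyal2). Calls rest on the edgeR quasi-likelihood fit, at p below 0.05 after Benjamini-Hochberg adjustment over the 14111 genes tested. Over all tested genes 64.0% were called, 31.7% as lower and 32.3% as higher. Of the 10, 6 were called with a change of at least 2-fold, as were 15.6% of all tested genes: Has1, Has2, Cemip, Tnfaip6 and Ptx3 fell and Hyal1 rose. The median log2 fold change of the 10 was -1.18, against -0.00019 over all tested genes. With the coefficient of variation between replicates fixed at 0.2, 8 of the 10 were called and 26.2% of all tested genes. Tested against a fold of 1.5, 7 of the 10 were called and 20.0% of all tested genes. Groups were free of overlap for 9 of the 10, and for 66.9% of all tested genes. In bulk RNA, fewer cells that express a gene and less RNA per cell cannot be told apart.

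**Figure D1:**
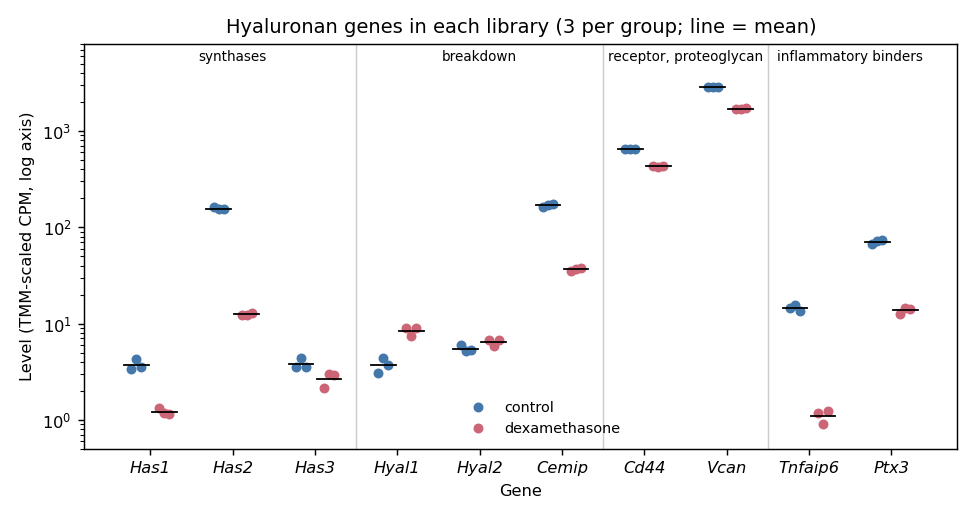
Level of each hyaluronan gene in each of the 6 libraries, as TMM-scaled CPM on a log axis, with control points in blue, dexamethasone points in red and a line at each group's mean. Has2 sits at 154 to 161 CPM in control libraries and at 12.1 to 12.96 CPM with dexamethasone, while Hyal1 is the gene whose dexamethasone points all lie above its controls and Hyal2 the gene whose groups overlap.

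Has2 encodes the synthase that makes most hyaluronan in mesenchymal cells and the embryo, and per kilobase it had the highest level of the synthases here. It lies on chromosome 7, 96438046 to 96464049 (here and below in the coordinates of the table, whose rat build is not stated). Control replicates 1 to 3 had 161, 154 and 154 CPM, and dexamethasone replicates 1 to 3 had 12.1, 12.3 and 12.96 CPM. The groups were far apart and each was tight, with coefficients of variation of 2.75% and 3.45%. Has2 fell 12.5-fold, a log2 fold change of -3.65 ± 0.036 (SE, n = 3 per group; edgeR quasi-likelihood, Benjamini-Hochberg adjusted p = 2.1e-45). Only 1.83% of the 14111 tested genes changed more in size, in either direction. Per kilobase of exon, its level stood above that of 83.6% of tested genes in control libraries and of 32.6% with dexamethasone.

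Has1 encodes a synthase that inflammatory cytokines are known to induce in fibroblasts. It lies on chromosome 1, 59720612 to 59732409. Its values were 3.37, 4.28 and 3.57 CPM in control libraries and 1.33, 1.16 and 1.16 CPM with dexamethasone. The lowest control was over the highest dexamethasone library, at counts of 130 to 169 against 41 to 56. Has1 fell 3.07-fold, with a log2 fold change of -1.62 ± 0.12 (SE) and an adjusted p of 1.8e-10 (edgeR quasi-likelihood).

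Has3 encodes the synthase known for making shorter chains. It lies on chromosome 19, 39063998 to 39077722, and 143 of its exon bases are shared with Chtf8 on the opposite strand. Its values were 3.50, 4.38 and 3.52 CPM in control libraries and 2.16, 2.98 and 2.91 CPM with dexamethasone. The groups did not overlap, but control replicate 2 and dexamethasone replicate 1 were the extremes. Has3 fell, with a log2 fold change of -0.51 ± 0.18 (SE, adjusted p = 0.0051, edgeR quasi-likelihood). The call was lost when control replicate 2 was left out (adjusted p = 0.054), or dexamethasone replicate 1 (adjusted p = 0.059), with that fixed coefficient of variation (adjusted p = 0.15) and when tested against a fold of 1.5 (adjusted p = 1). Chtf8 did not pass (log2 -0.10, adjusted p = 0.26), and which of the 2 genes reads in the shared bases came from was not tested.

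The synthases were compared with each other per kilobase of exon, with the exon length the table gives. Their sum was 40.8, 39.6 and 39.1 CPM per kb in control libraries and 3.85, 3.94 and 4.07 CPM per kb with dexamethasone, 10.1-fold lower. Has2 made up 94.8%, 93.2% and 94.3% of that sum in control libraries and 75.5%, 75.0% and 76.2% with dexamethasone. Has2 thus remained the main synthase transcript in all 6 libraries. The share of Has1 was 4.49% ± 0.62 (SD, n = 3) in control libraries and 14.7% ± 1.54 with dexamethasone, and that of Has3 1.37% ± 0.19 and 9.73% ± 1.48. The higher shares of Has1 and Has3 stood beside lower levels of both. That Has1 had a larger share than Has3 with dexamethasone rests on division by length. Undivided, the mean level with dexamethasone was 1.22 CPM for Has1 and 2.68 CPM for Has3. The log2 ratio of Has2 to Has1 within a library, which does not depend on scaling between libraries, was 4.40 ± 0.21 (SD) in control libraries and 2.37 ± 0.15 with dexamethasone, and that of Has2 to Has3 was 6.11 ± 0.21 and 2.97 ± 0.23. The log2 ratio of Has1 to Has3 was 1.71 ± 0.039 and 0.60 ± 0.37. For each of these ratios and shares the groups did not overlap, and the two-sided exact permutation p was 0.1, the smallest that 3 libraries against 3 can give. The ratios were chosen after the values were seen, and 17 such quantities were computed (Benjamini-Hochberg adjusted p = 0.1 for each in the exact test).

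**Figure D2:**
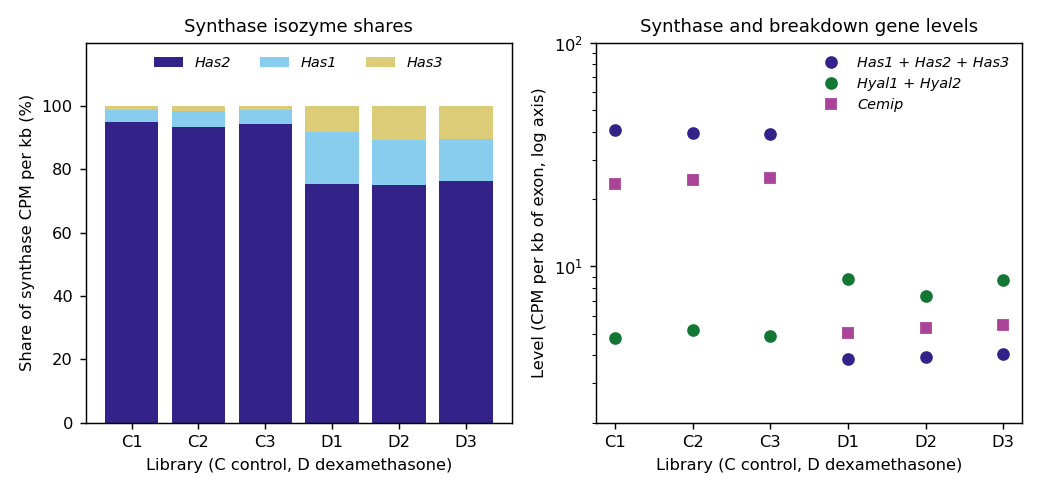
Left, share of each synthase in the summed CPM per kb of Has1, Has2 and Has3 in each library (C1 to C3 control, D1 to D3 dexamethasone), as stacked bars from 0 to 100%. Right, CPM per kb on a log axis for the summed synthases, summed Hyal1 and Hyal2, and Cemip: per kb, the synthase sum lies above the hyaluronidase sum in all 3 controls and below it in all 3 dexamethasone libraries, while without division by length 2 of those 3 stay above it.

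Breakdown genes moved in different directions. Hyal1, the lysosomal hyaluronidase, lies on chromosome 8, 116332796 to 116335435. Its values were 3.03, 4.43 and 3.75 CPM in control libraries and 8.96, 7.43 and 8.92 CPM with dexamethasone. The 3 dexamethasone libraries all stood above the controls, although the controls were spread by 18.7% (coefficient of variation). Hyal1 rose 2.26-fold, with a log2 fold change of 1.18 ± 0.18 (SE, n = 3 per group; adjusted p = 3.8e-11, edgeR quasi-likelihood).

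Hyal2, which encodes the hyaluronidase anchored at the cell surface, lies 3818 bases before Hyal1, at chromosome 8, 116324040 to 116328978. It had 5.96, 5.14 and 5.27 CPM in control libraries and 6.80, 5.87 and 6.68 CPM with dexamethasone. The groups overlapped, since dexamethasone replicate 2 was below control replicate 1. Its log2 fold change was 0.24 ± 0.093 (SE) and it did not pass (adjusted p = 0.061, edgeR quasi-likelihood). It passed when control replicate 1 (adjusted p = 0.034) or dexamethasone replicate 2 (adjusted p = 0.033) was left out and with scaling by library size alone (adjusted p = 0.031), at log2 0.28 to 0.31. The log2 ratio of Hyal1 to Hyal2 per kilobase was -0.72, 0.038 and -0.24 in control libraries and 0.65, 0.59 and 0.67 with dexamethasone (two-sided exact permutation p = 0.1, the smallest possible).

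Cemip encodes a secreted protein that binds hyaluronan and is needed for its depolymerisation by skin fibroblasts. It lies on chromosome 1, 146069771 to 146226462. It had 163, 170.3 and 173 CPM in control libraries and 35.3, 37.2 and 38.1 CPM with dexamethasone. The coefficients of variation were 3.03% and 3.92%, and the groups were well apart. Cemip fell 4.59-fold (log2 -2.20 ± 0.042 SE, adjusted p = 1.6e-39, edgeR quasi-likelihood). Per kilobase, Cemip stood at 4.88 ± 0.21 times the sum of Hyal1 and Hyal2 in control libraries and at 0.64 ± 0.074 times that sum with dexamethasone. Without division by length, Cemip stood at 2.24 to 2.80 times that sum with dexamethasone and at 17.8 to 19.2 times in the controls. The summed synthases stood at 8.50, 7.57 and 8.01 times the sum of Hyal1 and Hyal2 in control libraries and at 0.44, 0.53 and 0.47 times with dexamethasone. Without division by length these ratios were 18.7, 16.98 and 17.8 in the controls and 0.99, 1.24 and 1.09 with dexamethasone. The ratio was thus lower with dexamethasone on both scales, but it lay below equality in all 3 dexamethasone libraries only per kilobase. It does not cover all breakdown genes. Cemip, at 24.2 CPM per kb in control libraries and 5.28 CPM per kb with dexamethasone, is not in the sum of Hyal1 and Hyal2. Cemip fell as the synthases did, and a ratio with Cemip added to that sum was not computed. The ratios given are of transcripts, and neither hyaluronan itself nor enzyme activity was measured.

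The receptor Cd44 and the proteoglycan versican had the highest levels per kilobase of the 10 genes and changed by less than 2-fold. Cd44 (chromosome 3, 92696313 to 92783658) had 649, 654 and 642 CPM in control libraries and 428, 427 and 434 CPM with dexamethasone. The spread within each group was under 1% (coefficients of variation of 0.964% and 0.895%). Cd44 fell 1.51-fold (log2 -0.59 ± 0.011 SE, adjusted p = 3.4e-24, edgeR quasi-likelihood). Against a fold of 1.5 it did not pass (adjusted p = 0.61), and 28.9% of tested genes changed more in size.

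Vcan (chromosome 2, 18490102 to 18565842) encodes versican, whose chondroitin sulfate chains and link module hold water and hyaluronan around migrating cells. It had 2872, 2849 and 2828 CPM in control libraries and 1707, 1707 and 1711 CPM with dexamethasone. The dexamethasone libraries differed from each other by less than 5 CPM, and all were far under the controls. Vcan fell 1.67-fold (log2 -0.74 ± 0.0065 SE, adjusted p = 9.0e-30, edgeR quasi-likelihood). Per kilobase of exon, its level stood above that of 97.8% of tested genes in control libraries and of 96.0% with dexamethasone. The log2 ratio of Has2 to Vcan within a library was -2.72 ± 0.030 (SD) in control libraries and -5.63 ± 0.047 with dexamethasone, so the synthase was lower also relative to the proteoglycan. Counts per gene do not separate the splice forms of Cd44 and Vcan.

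Binding proteins of inflamed matrix fell further. Tnfaip6 encodes TSG-6, which binds hyaluronan and moves heavy chains of inter-alpha-inhibitor onto it, and is known as an anti-inflammatory product of marrow stromal cells. It lies on chromosome 3, 37545238 to 37564699. It had 14.5, 15.5 and 13.5 CPM in control libraries and 1.18, 0.908 and 1.23 CPM with dexamethasone, from 540 to 613 counts against 32 to 50. The groups did not approach each other. Tnfaip6 fell 12.95-fold (log2 -3.69 ± 0.14 SE, adjusted p = 9.7e-28, edgeR quasi-likelihood), and 1.79% of tested genes changed more in size.

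Ptx3 (chromosome 2, 158097843 to 158103653) encodes the long pentraxin PTX3, a soluble pattern recognition protein that works with TSG-6 to organise hyaluronan in the cumulus. It had 66.7, 71.9 and 72.9 CPM in control libraries and 12.7, 14.6 and 14.1 CPM with dexamethasone. The highest dexamethasone library was well under the lowest control. Ptx3 fell 5.12-fold (log2 -2.36 ± 0.074 SE, adjusted p = 1.9e-34, edgeR quasi-likelihood). The log2 ratio of Tnfaip6 to Ptx3 per kilobase was -1.71, -1.71 and -1.94 in control libraries and -2.92, -3.51 and -3.02 with dexamethasone, so Tnfaip6 was lower also relative to Ptx3 in 3 of 3 libraries (exact permutation p = 0.1, the smallest possible).

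**Figure D3:**
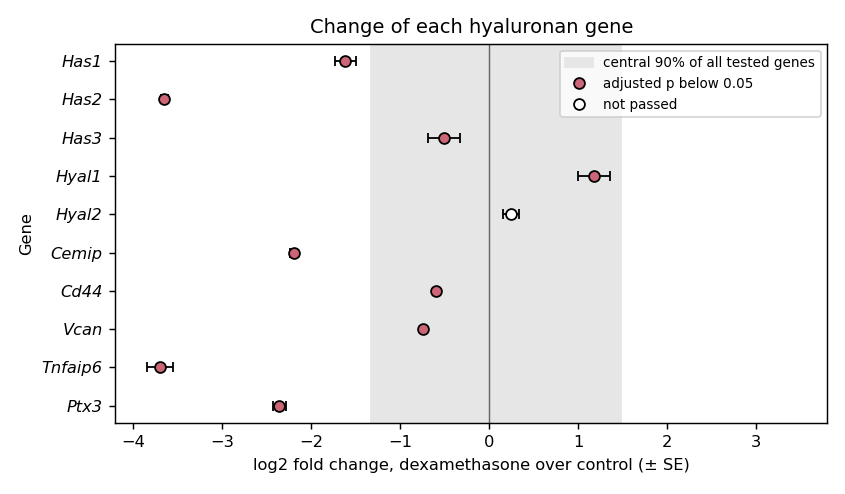
log2 fold change of each gene, dexamethasone over control, with bars of ± 1 SE from the spread between replicates; filled points passed an adjusted p below 0.05, and the shaded band holds the central 90% of all tested genes (-1.33 to 1.49). Has1, Has2, Cemip, Tnfaip6 and Ptx3 lie below the band, and Hyal2 is the open point.

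The order of levels was set per kilobase of exon. In the controls Vcan came first at 247 ± 1.91 CPM per kb (SD, n = 3), then Cd44 at 163 ± 1.57. Has2 at 37.5 ± 1.03 and Ptx3 at 36.6 ± 1.73 followed, and their ranges overlapped. Cemip at 24.2 ± 0.73 and Tnfaip6 at 10.6 ± 0.75 came next. Hyal2 at 2.74 ± 0.22, Hyal1 at 2.23 ± 0.42 and Has1 at 1.79 ± 0.23 CPM per kb each overlapped their neighbour in the order, and Has3 was lowest at 0.55 ± 0.072. With dexamethasone Vcan and Cd44 kept the top of the order at 148 ± 0.21 and 108 ± 0.97 CPM per kb. Has2 moved from place 3 to place 7, at 2.99 ± 0.10, and its range overlapped that of Hyal2 at 3.23 ± 0.25. Hyal1 moved from place 8 to place 5, at 5.03 ± 0.52, and its range overlapped that of Cemip at 5.28 ± 0.21. Ptx3 took place 3 at 7.17 ± 0.53, and Tnfaip6 (0.81 ± 0.13), Has1 (0.58 ± 0.046) and Has3 (0.39 ± 0.065) closed the order. Without division by length, Has3 at 2.68 CPM lay above Has1 at 1.22 CPM with dexamethasone.

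The genes whose pattern lay nearest to that of Tnfaip6 were Cd200, Has2 and Ncan. Tnfaip6 was taken because its log2 fold change was the largest in size with all libraries, but it differed from that of Has2 by less than its SE. The order turned without control replicate 2 (-3.64 against -3.66) and without dexamethasone replicate 2 (-3.58 against -3.64). Nearness was the Euclidean distance of log2 CPM (prior count 2), relative to the control mean, over the 6 libraries. The distances were 0.34, 0.34 and 0.41. Has2 was thus the second nearest gene with a conventional symbol. With 2 groups, this distance mostly follows the size of the change. The place of Has2 therefore adds little to the similar fold changes given above. Cd200, a surface glycoprotein, fell from 68.7 ± 0.72 to 5.76 ± 0.19 CPM (SD, n = 3). Ncan held 72 control counts and 0 with dexamethasone, so its distance depends on the prior count.

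Other genes of the pathway were read from lists by role. Over all tested genes 32.3% rose and 31.7% fell, and no list below was tested as a set against those shares. Of 11 genes that supply or handle the sugar precursors, 4 rose and 4 fell, 3 missed the threshold, and the median log2 fold change was -0.053. Uap1, whose product makes UDP-N-acetylglucosamine, fell from 217 ± 5.04 to 90.4 ± 2.56 CPM (SD, n = 3; log2 -1.26). Ugdh, whose product makes UDP-glucuronic acid, was at 107 and 109.7 CPM and did not pass (adjusted p = 0.40, edgeR quasi-likelihood); it is named after its values were seen. Nagk, the N-acetylglucosamine kinase, fell (log2 -0.55) and Gfpt2, an enzyme at the entry of the hexosamine pathway, rose (log2 0.77). The call of Nagk was lost with the coefficient of variation fixed at 0.2 (adjusted p = 0.071) and against a fold of 1.5 (adjusted p = 1), and that of Gfpt2 against a fold of 1.5 (adjusted p = 0.16).

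Of 9 other breakdown genes, 5 were tested, of which 3 rose and 1 fell, 1 missed the threshold, and the median was 0.33 on the log2 scale. Cemip2, which encodes a membrane protein related to CEMIP, fell from 87.3 ± 1.18 to 25.6 ± 1.56 CPM (log2 -1.77). Its change had the same direction as that of Cemip. Gusb, the lysosomal beta-glucuronidase, and Hyal3, a hyaluronidase relative, rose by 0.55 and 0.42. Both calls were lost with the coefficient of variation fixed at 0.2 (adjusted p = 0.079 and 0.23) and against a fold of 1.5 (adjusted p = 1 each). Hyal3 shares 119 exon bases with Naa80. Hyal5, Hyal6 and Spam1, named after their values were seen and known from the testis, had 0 counts in all 6 libraries. With a floor of 6 counts, 0 counts leave room for a level of 0.170 CPM in the shallowest library.

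Of 7 other hyaluronan receptors, 5 were tested, of which 3 rose and 2 fell, with a median of 0.48. Layn, which encodes the receptor layilin, rose from 14.5 ± 1.35 to 46.4 ± 1.08 CPM (SD, n = 3), opposite in direction to Cd44. Tlr2, a pattern recognition receptor, fell from 26.8 ± 1.03 to 3.58 ± 0.28 CPM. Stab1, a scavenger receptor, fell from 0.80 ± 0.044 to 0.27 ± 0.090 CPM, at 94 and 31 counts. Hmmr, which encodes the receptor RHAMM and is also a mitotic spindle gene, rose from 125 to 174 CPM and is named after its values were seen. That call was lost with the coefficient of variation fixed at 0.2 (adjusted p = 0.14) and against a fold of 1.5 (adjusted p = 1).

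Of 16 link proteins, lecticans, inter-alpha-inhibitor heavy chains and other binders, 15 were in the table and 6 were tested: 1 rose and 3 fell, while 2 missed the threshold. The median was -1.42, also with Ncan at its bound. The summed level of the list was 223 to 227 CPM in controls and 223 to 248 CPM with dexamethasone. Most of it came from C1qbp, at 184 CPM in both groups, which did not pass, and Habp4, which rose from 34.6 to 51.9 CPM. Both are named after their values were seen. Acan, which encodes aggrecan, fell from 4.37 ± 0.66 to 0.61 ± 0.13 CPM. Ncan, which encodes neurocan, fell at least 12.0-fold by the floor over the group. Hapln4, a link protein gene, fell from 70 to 8 counts over 3 libraries (log2 -3.07, or -4.45 without dexamethasone replicate 2 and -2.47 without dexamethasone replicate 3). The inter-alpha-inhibitor genes in the table were near absent: Itih1, Itih2 and Itih4 had 2 to 11 counts per group, and Itih3 and Ambp had 0 in all 6 libraries. The genes with these counts are named after their values were seen, and Itih5 was not in the table.

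Among 10 partners of versican, 7 were tested, of which 6 fell and 1 rose (31.7% and 32.3% of all tested genes), with a median of -1.80. Tnc (tenascin-C), Fbln2 (fibulin-2) and Fbn1 (fibrillin-1) had log2 fold changes of -3.28, -2.62 and -2.30, all larger in size than that of Vcan. Of 7 proteases that can cleave versican, 6 were tested, 3 rose and 3 fell, with a median of 0.47. Adamts8 fell from 74.2 ± 0.94 to 2.02 ± 0.33 CPM. Adamts15 rose from 1.02 ± 0.39 to 37.0 ± 1.63 CPM, and Adamts9 from 0.25 ± 0.18 to 4.20 ± 0.97 CPM (30 and 491 counts). Without control replicate 2 the log2 fold change of Adamts9 was 4.75, against 4.03 with all libraries. Adamts1 fell from 1461 to 844 CPM (log2 -0.79), while Adamts5 rose from 39.5 to 126 CPM; both are named after their values were seen.

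Of 18 enzymes that build the chondroitin sulfate chains carried by versican, 16 were tested: 6 rose and 7 fell, 3 missed the threshold, and the median was -0.18. Chst11, a chondroitin 4-sulfotransferase, fell from 92.4 ± 1.40 to 13.4 ± 0.49 CPM (SD, n = 3). Csgalnact1, which starts chain growth, rose from 25.0 ± 1.49 to 72.2 ± 2.09 CPM. Chst3, a 6-sulfotransferase, rose from 0.17 ± 0.11 to 0.99 ± 0.14 CPM, at 20 and 116 counts. Of 9 genes that anchor CD44 to the cytoskeleton, cut it or bind it, 3 rose and 5 fell, 1 missed the threshold, and the median was -0.085. Mmp9, a gelatinase that docks on CD44, fell from 31.7 ± 1.47 to 0.30 ± 0.16 CPM, and Mmp14, a membrane protease that sheds it, from 353 ± 5.83 to 160.2 ± 0.76 CPM. Msn (moesin) fell by 0.81 on the log2 scale, while Ezr (ezrin), a linker of the same family named after its values were seen, rose by 0.65.

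**Figure D4:**
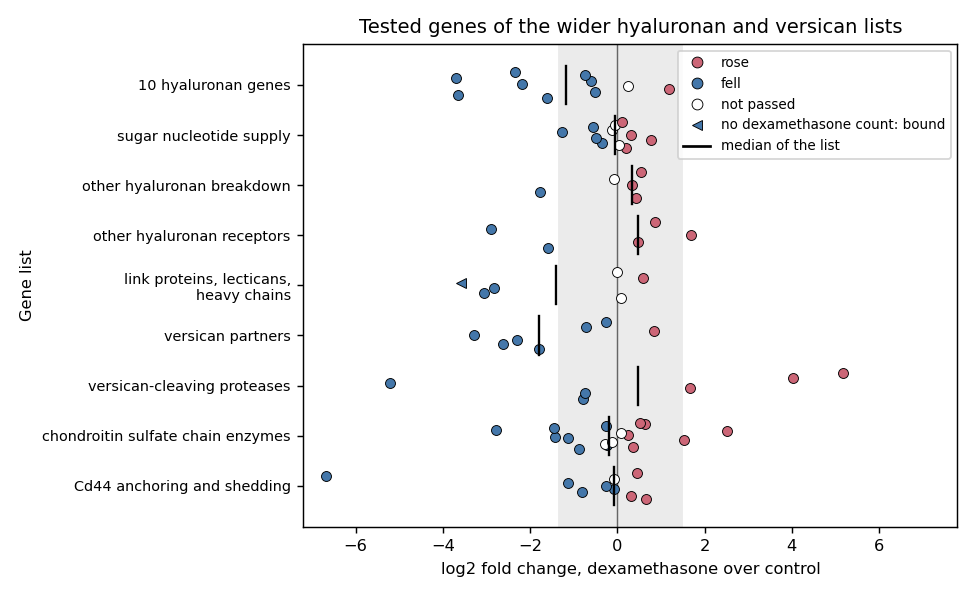
log2 fold change of each tested gene of the 10 hyaluronan genes and of 8 lists of related genes, with rises in red, falls in blue, open points for genes that did not pass, a vertical line at each list's median and the central 90% of all tested genes shaded. The versican-cleaving proteases span -5.21 to 5.18, and 6 of the 7 tested versican partners lie below 0.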

How the data were processed

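The submitters deposited read counts per gene with exon positions and lengths, per the file headers; the submitters' processing notes name the mouse build mm10, but the table held rat symbols and 877 genes on chromosome 20, and the 10 genes lay on the same chromosome as in the RefSeq rat table (GRCr8). Coordinates are copied from the table. Not given in the sources used here: its rat build, the aligner, counter, strand setting and treatment of multiply mapped reads. Low counts were often even (70.3% of values from 1 to 20), so the floor was 6 counts. That floor covers counting error only.

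Genes were filtered with filterByExpr (14111 kept), TMM-scaled and fitted by the robust quasi-likelihood method of edgeR 4.0.16 (R 4.3.3) with no covariate. DESeq2 1.42.0, limma-voom (limma 3.58.1), other scalings, no filter, a replicate block, a fixed coefficient of variation of 0.2, a test against a fold of 1.5 and leaving out each library were alternatives. Standard errors come from log2 CPM with a prior count of 2. The same comparison was tested on simulated data (13972 genes fitted), where 28 of 49 changes of 1.2-fold, 37 of 49 of 1.5-fold, 48 of 49 of 2-fold and 49 of 49 of 4-fold were recovered. Of the unchanged genes, 7 were called. Every simulated gene had the same coefficient of variation (3.66%) and few genes were changed, whereas 64.0% of genes were called in the data. These rates may therefore not hold for the data.

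The 10 genes and all lists were chosen with earlier results of these data known. All 10 genes are described; of each list of pathway genes, the called genes with the largest change (up to 3) are named. Fkbp5, Tsc22d3 and Per1 were fixed as a check of the labels. Other genes are named as nearest in pattern to Tnfaip6, or as neighbours or overlaps of described genes. The rest are named where said to be named after their values were seen, as the marker genes are. Neighbours of Has1 and Has3 other than Chtf8 were also read and are not described.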

Additional observations from a re-analysis of the deposited data

How the results depend on the processing

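Under 14 alternatives, the direction of each of the 10 hyaluronan genes was the same in all 14, and 132 of 140 values stayed on their side of the threshold. The exceptions were in Has3, Hyal2 and Cd44. Has3 (log2 -0.51) was not called with the coefficient of variation fixed at 0.2 (log2 -0.51, adjusted p = 0.15) or against a fold of 1.5 (log2 -0.51, adjusted p = 1), and ranged from -0.58 to -0.37 when each library was left out. Hyal2 was called with library size alone (log2 0.28, adjusted p = 0.031) and ranged from 0.20 to 0.31 without single libraries. Cd44 was not called against a fold of 1.5 (log2 -0.59, adjusted p = 0.61). The number of the 10 genes called was 8 to 10 with single libraries left out. In the same fits 8570 to 8757 of all genes were called, of 14322 to 14347 tested. Over all genes, 9027 were called, against 3693 (1993 rose, 1700 fell) with the coefficient of variation at 0.2 and 2827 (1549 rose, 1278 fell) against a fold of 1.5. Calls among the list genes under those 2 settings were 2 and 1 for sugar precursors, 1 and 1 for other breakdown genes, 8 and 7 for chondroitin sulfate enzymes, and 4 and 4 for CD44 anchoring and shedding, and other receptors had 3 against a fold of 1.5. Without division by length, the share of Has1 among synthases was 5.17 percentage points higher with dexamethasone (10.2 with it) and that of Has3 14.0 points higher (8.35 with it), which follows from the exon lengths. In the same way, an alternative added after seeing the data, the synthase sum over the Hyal1 and Hyal2 sum was 17.8 in the controls and 1.11 with dexamethasone, against 8.03 and 0.48 per kilobase. Depth limits Has1, Has3, Hyal1, Hyal2 and Tnfaip6 most, which rest on 32 to 613 counts a library.

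Replicate numbers are shared in the labels, but deviations of same-numbered libraries correlated at 0.0026, -0.0078 and 0.020, so they gave no sign of pairing; 1 of 3 controls correlated best with its own number. With the replicate number as a block, 8991 genes were called, and 9 of the 10 hyaluronan genes.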

Other observations

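Hyal1 and Hyal2 sit in a run of genes on chromosome 8 that the table lists in the order Rassf1, Tusc2, Hyal2, Hyal1, Naa80, Hyal3 and Ifrd2, all on the plus strand. All 7 were tested, and these neighbours were chosen after the values of Hyal1 were seen. Rassf1, a tumour suppressor gene, fell from 35.7 ± 0.98 to 19.2 ± 1.78 CPM (SD, n = 3), while Hyal1 rose 2.26-fold. Naa80, which encodes the actin N-acetyltransferase, rose from 8.62 ± 0.38 to 12.0 ± 0.82 CPM, a call lost with the coefficient of variation fixed at 0.2 (adjusted p = 0.15, edgeR) and against a fold of 1.5 (adjusted p = 1). Tusc2 rose by 0.28 on the log2 scale, a call lost with DESeq2 (adjusted p = 0.056), without control replicate 2 (adjusted p = 0.12) or dexamethasone replicate 2 (adjusted p = 0.22), and under those same 2 settings. Ifrd2 did not pass (log2 0.13, adjusted p = 0.33). Hyal1 had the largest change of the 7 in size, and no exon base of Hyal1 or Hyal2 is shared with another gene of the run.

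Vcan lies next to the link protein gene Hapln1, 71031 bases apart. Hapln1 was not tested, with 8 counts in the controls and 16 with dexamethasone, while Vcan had 336379 and 201733. Edil3, the next gene on that side, fell from 0.49 ± 0.072 to 0.10 ± 0.061 CPM (SD, n = 3), and Xrcc4 on the other side did not pass (log2 0.018, adjusted p = 0.83, edgeR quasi-likelihood).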
